A study of Mus musculus with 4 samples.

Results

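The cells described here were picked out of mouse liver nonparenchymal cells, the liver's cells other than hepatocytes, by genes of large peritoneal macrophages. A cell was taken where Prg4, Alox15, Serpinb2, Gata6 and Garnl3 together gave at least 3 UMIs (unique molecular identifiers, each counting 1 captured RNA molecule). It also had to hold at least 5 Lyz2 UMIs, at most 2 of Clec4f, at most 1 of Upk3b and Msln together, and under 0.3% of its UMIs from 6 endothelial genes. This rule took 83 of 25861 cells that passed the filters of at least 200 genes and at most 25% mitochondrial UMIs, out of 27091 in all. The marker sum alone held for 664 cells, adding Lyz2, the lysozyme of myeloid cells, left 190, and the limit on the Kupffer cell gene Clec4f left 104. The limits on the mesothelial genes and on the endothelial genes left 99 and then 83.

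Large peritoneal macrophages are long-lived resident macrophages of the peritoneal cavity. Their identity depends on the transcription factor Gata6, which is induced by retinoic acid, and they carry high CD11b (Itgam), F4/80 (Adgre1) and ICAM2 (Icam2) and low MHC class II. They are known to gather on the surface of injured abdominal organs, the liver included. Kupffer cells, the resident macrophages of the liver sinusoids, carry Clec4f. They also carry Timd4 and Vsig4, which are on both the Kupffer and the peritoneal macrophage gene lists used below.

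All 4 animals were wild-type male mice, 8 to 10 weeks old. The 2 CCl4 mice were injected intraperitoneally with 10 µl per g body weight of carbon tetrachloride, a hepatotoxin that leads to liver fibrosis, as 1 part in 9 parts of corn oil, 2 times a week for 5 weeks, and the 2 corn oil mice received the oil by the same schedule. Livers were taken 48 h after the last injection, dissociated by pronase and collagenase perfusion, and freed of hepatocytes at 50 g, and each of the 4 libraries holds the cells of 1 mouse (BD Rhapsody, whole transcriptome). The labels name no step that removed peritoneal cells or cells of the liver surface, and both groups received an injection into the peritoneal cavity.

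Libraries held 45408857 to 55529871 UMIs over all cells. The 4 labels name 1 batch, but the file headers show that the CCl4 1 table came from a separate pipeline run. Any 2 libraries shared 48 to 74 cell barcodes. The selected cells numbered 13 in corn oil 1, 26 in corn oil 2, 28 in CCl4 1 and 16 in CCl4 2. Their median depth was 17343, 17827, 17240.5 and 13329.5 UMIs in that order, which is kept for all values below. Levels are given as CPM, the UMIs of a gene summed over the cells of a library and scaled to a fixed total.

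Stellate cell and fibroblast genes were low in most selected cells of both corn oil mice, in 9 of 28 in CCl4 1 and in 9 of 16 in CCl4 2. The 8 stellate cell and fibroblast markers (Dcn, Lrat, Reln, Col1a1, Col3a1, Lum, Colec11 and Ecm1) made up at least 0.3% of the UMIs in 1 of 13, 1 of 26, 19 of 28 and 7 of 16 selected cells. This limit was set after the values had been seen, and no cell lay near it: the highest value under it was 0.202% and the lowest above it 0.400%. The share of such cells was higher in both CCl4 libraries than in both corn oil libraries, with an exact two-sided permutation p of 0.333, the smallest that 2 against 2 mice allow. The 28 cells above the limit are called stromal-high and the 55 below it stromal-low. A low stromal share does not by itself establish the label of peritoneal macrophage. Among the stromal-low cells of CCl4 1 and CCl4 2, Prg4 was detected in 8 of 9 and 8 of 9, and Gata6 in 4 of 9 and 5 of 9. Ccr2, a chemokine receptor of monocytes, was detected in 3 of 9 and 5 of 9, against 2 of 12 and 0 of 25 in the corn oil libraries.

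Prg4 (proteoglycan 4, a lubricating glycoprotein) was detected in 0 of 28 stromal-high and 50 of 55 stromal-low cells. Gata6 was the only one of the 5 rule genes detected in 21 of 28 stromal-high and 2 of 55 stromal-low cells. Icam2, which the rule did not use, was detected in 5 of 28 and 40 of 55. The 5% of cells with the highest Scrublet doublet score of each library held 19 of 28 stromal-high and 0 of 55 stromal-low cells. Prg4 and Gata6 are genes of the rule, so their detection is tied to the selection, whereas Icam2 and the Scrublet score were not used by it. The stromal-high cells are called neither peritoneal macrophages nor any other type here, and each result is given for all 83 cells and for the 55.

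The threshold of the rule mattered for this makeup. With a marker sum of exactly 3, 14 of 18 cells were stromal-high, with a sum of 4, 6 of 11, and with 5 or more, 8 of 54. Just outside, 19 cells with a sum of 2 met the other limits, of which 8 were stromal-high. The marker sum per cell had a lowest, median and highest value of 5, 25 and 235 UMIs in corn oil 1 and of 3, 33.5 and 171 in corn oil 2. In CCl4 1 the same values were 3, 4 and 90, and in CCl4 2 they were 3, 6 and 201. The plot of the 83 cells shows the cells with many marker UMIs and few stromal ones in all 4 libraries, and the cells with few marker UMIs and many stromal ones almost only in the CCl4 libraries.

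**Figure D1:**
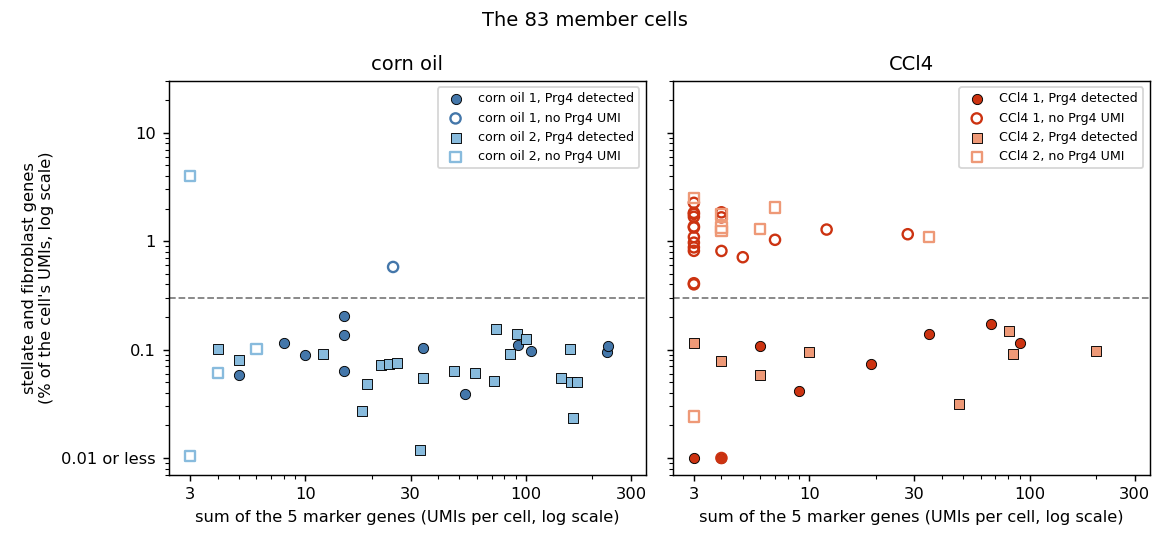
Each of the 83 selected cells by the sum of the 5 rule genes (horizontal axis, UMIs per cell, log scale) and the percentage of its UMIs from 8 stellate cell and fibroblast genes (vertical axis, log scale), corn oil and CCl4 libraries in separate panels. The dashed line is the 0.3% limit, with 2 of 39 corn oil cells and 26 of 44 CCl4 cells on or above it.

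Prg4 lies on the minus strand of chromosome 1 (GRCm38, GENCODE vM21, 150449412 to 150466165) and was the rule gene with the most UMIs. Its level in all selected cells was 2241, 2538, 322 and 1231 CPM, and in the stromal-low cells 2636, 2582, 1287 and 2672 CPM. Over all cells both CCl4 libraries were below both corn oil libraries, while in the stromal-low cells only CCl4 1 was lower and the groups overlapped. A single cell gave 48.5% of the Prg4 UMIs of CCl4 1 and 51.4% of those of CCl4 2 among the stromal-low cells. In endothelial cells, which should lack the gene, 0.417% to 0.602% of cells had a Prg4 UMI, at median depths of 4213 to 6477.5 UMIs.

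Serpinb2, a protease inhibitor of plasminogen activators also called PAI-2, lies on chromosome 1 (107511423 to 107535478, plus strand). Its level in the stromal-low cells was 293, 365, 378 and 1216 CPM, highest in CCl4 2. No Serpinb2 UMI was found in any of the 1220 Kupffer cells (Clec4f and C1q genes of at least 3 UMIs each). Alox15 (chromosome 11, 70344152 to 70352031, minus strand), the 12/15-lipoxygenase, gave 328, 51.5, 30.8 and 0 CPM in the stromal-low cells, with corn oil 1 above the others. The 76 Alox15 UMIs of corn oil 1 compare with 24, 4 and 0 in the others, so the CCl4 values rest on 4 molecules, all in 1 cell. Garnl3 (chromosome 2, 32986224 to 33131654, minus strand) gave 77.7, 64.4, 15.4 and 0 CPM.

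Gata6 differed from the other rule genes in where it was found. Its level over all selected cells was 198, 234, 177 and 321 CPM, with overlapping groups. In stromal-low cells it was 207, 232, 116 and 195 CPM, and in the stromal-high cells of the CCl4 mice 198 and 428 CPM. In CCl4 2, 1 cell gave 53.7% of the Gata6 UMIs of the stromal-high cells. Gata6 was the only rule gene detected in 15 of 19 and 5 of 7 of these CCl4 cells, so its level there is tied to the selection. Cells outside the rule with stromal genes at 1% or more and at most 1 Lyz2 UMI held 447, 136, 200 and 339 CPM of Gata6. Kupffer cells held at most 2.42 CPM. The Gata6 levels of the stromal cells outside the rule and of the selected cells overlapped, whereas Prg4 in those stromal cells was at 2.35 to 30.6 CPM.

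Of the defining markers that the rule left aside, Icam2 and Itgam were above the Kupffer range in the stromal-low sums of every library. Icam2 (chromosome 11, 106377656 to 106388075, minus strand), an adhesion molecule that marks large peritoneal macrophages, was at 393, 288, 185 and 269 CPM against 10.3 to 17.7 in Kupffer cells. Endothelial cells also express Icam2, at 97.0 to 141 CPM. Itgam (chromosome 7, 128062640 to 128118491, plus strand), the CD11b integrin chain, was at 3952, 4680, 2827 and 3387 CPM against 67.1 to 248 in Kupffer cells and 591 to 1143 in C1q macrophages (C1q genes and Lyz2 at 5 UMIs or more, no Clec4f). Adgre1, the F4/80 antigen, was at 1260, 1058, 886 and 631 CPM and overlapped Kupffer cells at 751 to 1010, with CCl4 2 below them. Not every stromal-low cell carried these markers at a high level. Icam2 was detected in 10 of 12, 20 of 25, 5 of 9 and 5 of 9 of them. The lowest Itgam count of a stromal-low cell was 11, 16, 2 and 3 UMIs. Over all selected cells of the CCl4 libraries, Itgam was at 846 and 1641 CPM and Icam2 at 59.7 and 137 CPM.

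**Figure D2:**
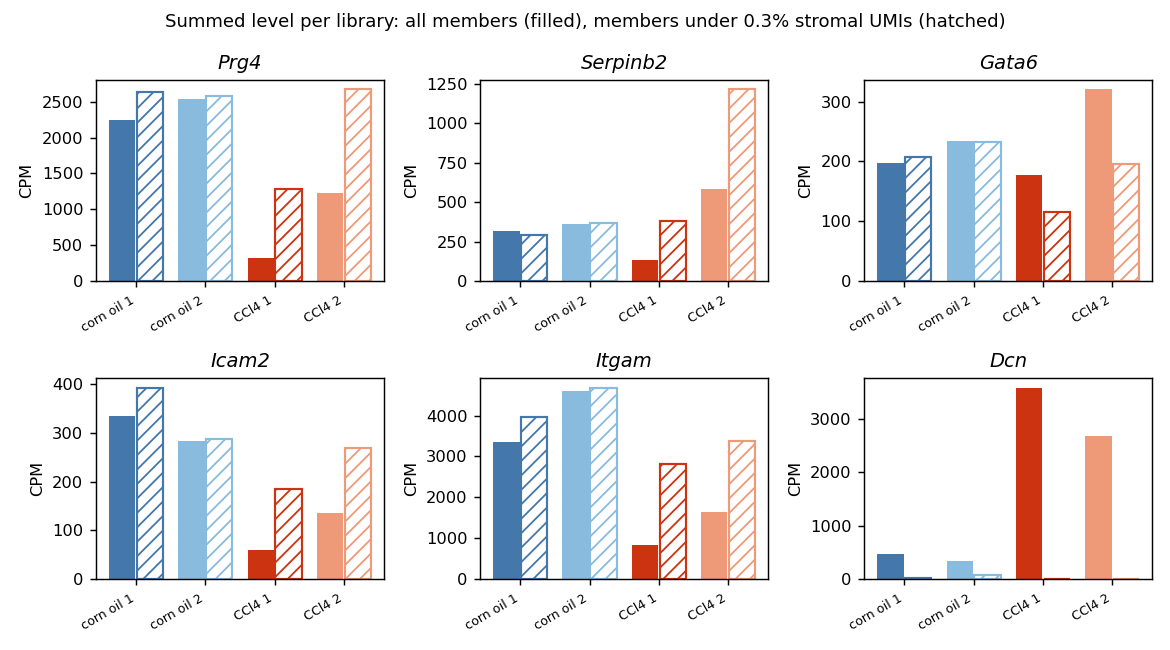
Summed level (CPM, vertical axes from 0) of marker genes per library, for all selected cells (filled bars) and for the stromal-low cells (hatched bars). Prg4 in CCl4 1 is 322 CPM over all cells and 1287 CPM in the stromal-low cells, and Dcn in that library falls from 3587 to 7.7 CPM.

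Cell type markers were checked with 18 lists, of which those nearest to the results are given. The summed level of the 8 stellate cell and fibroblast markers was 1651, 1422, 8755 and 8428 CPM in all selected cells and 923, 755, 663 and 854 CPM in the stromal-low cells, which the limit on these same genes defined. Kupffer cells held 465 to 1909 CPM. All 6 mesothelial markers were at 0 in the stromal-low cells of all 4 libraries. The rule itself limited Upk3b and Msln among them to at most 1 UMI together. Of 7 T and NK cell markers, 5 were detected in the stromal-low cells, with sums of 60.4, 2.15, 0 and 9.28 CPM. The 9 endothelial markers summed to 345, 225, 1117 and 18.6 CPM and were highest in CCl4 1, and the 7 classical monocyte markers to 2726, 1034, 1186 and 2487 CPM, with overlapping groups. The MHC class II gene H2-Aa in the stromal-low cells was at 315, 25.8, 1032 and 9.28 CPM, high in the first library of each group and low in the other. Of the 73 H2-Aa UMIs of corn oil 1, 72 came from 1 cell, as did all 134 of CCl4 1.

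The upstream sequences of 3 genes with high levels in these cells and low levels in Kupffer cells are shown because Gata6, the identity factor of large peritoneal macrophages, binds GATA sites. Each is the 250 bases before a start of the RefSeq table (GRCm38.p6), 5′ to 3′ on the gene's strand, with the GATA motif in capitals: the letters AGATAA, the letters AGATAG, the form TGATAA or the form TGATAG, searched on both strands. The windows are chr1:107511173-107511422 (plus strand) for Serpinb2, chr7:46715677-46715926 (minus strand) for Saa3 and chr2:164356508-164356757 (minus strand) for Slpi.
Serpinb2: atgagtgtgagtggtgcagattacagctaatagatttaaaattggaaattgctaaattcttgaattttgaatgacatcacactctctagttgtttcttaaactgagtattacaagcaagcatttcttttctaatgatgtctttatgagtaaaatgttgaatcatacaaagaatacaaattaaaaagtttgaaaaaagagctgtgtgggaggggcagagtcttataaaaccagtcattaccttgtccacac
Saa3: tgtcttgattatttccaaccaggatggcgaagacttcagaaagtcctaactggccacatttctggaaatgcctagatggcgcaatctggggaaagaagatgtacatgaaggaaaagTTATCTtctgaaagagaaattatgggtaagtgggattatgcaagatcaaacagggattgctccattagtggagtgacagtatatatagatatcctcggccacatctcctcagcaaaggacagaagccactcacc
Slpi: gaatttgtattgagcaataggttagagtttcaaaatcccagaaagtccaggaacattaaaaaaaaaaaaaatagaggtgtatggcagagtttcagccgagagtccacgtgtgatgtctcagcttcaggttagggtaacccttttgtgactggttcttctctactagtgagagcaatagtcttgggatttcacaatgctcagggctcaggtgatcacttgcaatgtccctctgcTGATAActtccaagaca
Saa3 holds 1 match, on the opposite strand, 134 bases before the start, Slpi holds 1 match 17 bases before it, and the Serpinb2 window shown holds none. Serpinb2 has another RefSeq start, whose overlapping window (chr1:107511260-107511509) holds 1 match 41 bases before that start. Of 23 genes looked for, 14 matched the table by symbol, and 5 of their 17 starts held a match. Over the whole table, 8718 of 32851 starts (26.5%) held one. A match of these letters describes the sequence and was not tested as a binding site.

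The stromal-low cells were set against the 1220 Kupffer cells as a description with no test, since the rule chose the cells by their genes. Of 8546 genes measured, 9.15% were higher in all 4 libraries of the stromal-low cells than in any Kupffer library, and 15.7% were lower. Over all 83 cells, 8.85% of 8846 genes were higher than in any Kupffer library. Among the 55, of 26 measured genes in the list of peritoneal macrophage genes outside the rule, 13 were higher and 6 lower. The lower ones included Timd4 and Vsig4, which are also on the Kupffer identity list. Of 19 Kupffer identity genes, 18 were lower and 0 higher. Timd4, a receptor for phosphatidylserine, was at 0, 4.29, 7.70 and 0 CPM against 522 to 705, and C6, a complement component, was at 0 in all 4 libraries against 502 to 1763. A single UMI is worth 9.28 CPM in CCl4 2, the shallowest sum, so low values there rest on very few molecules. Marco, a scavenger receptor, was the Kupffer identity gene whose values overlapped, at 1924, 1805, 2504 and 2524 CPM against 596 to 5740.

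After Prg4 and Serpinb2, the genes with the largest ratios to Kupffer cells were Saa3 and Slpi. Saa3 (chromosome 7, 46711998 to 46715700, minus strand), an acute-phase serum amyloid A, was at 7183, 6455, 8135 and 6319 CPM against 1.81 to 6.46 in Kupffer cells and 72.9 to 277 in C1q macrophages. Slpi (chromosome 2, 164354070 to 164389095, minus strand), a secreted inhibitor of neutrophil elastase, was at 5833, 6644, 6656 and 16740 CPM against 1.51 to 13.4. In CCl4 1, 1 cell gave 88.2% of the Slpi UMIs of the stromal-low cells. Both genes were above the Kupffer range in every library of stromal-low cells. The groups overlapped for Saa3, and for Slpi the lower CCl4 library was just above the higher corn oil library. The plot of the 20 genes with the largest ratios shows the spread between the libraries beside the range in Kupffer cells.

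**Figure D3:**
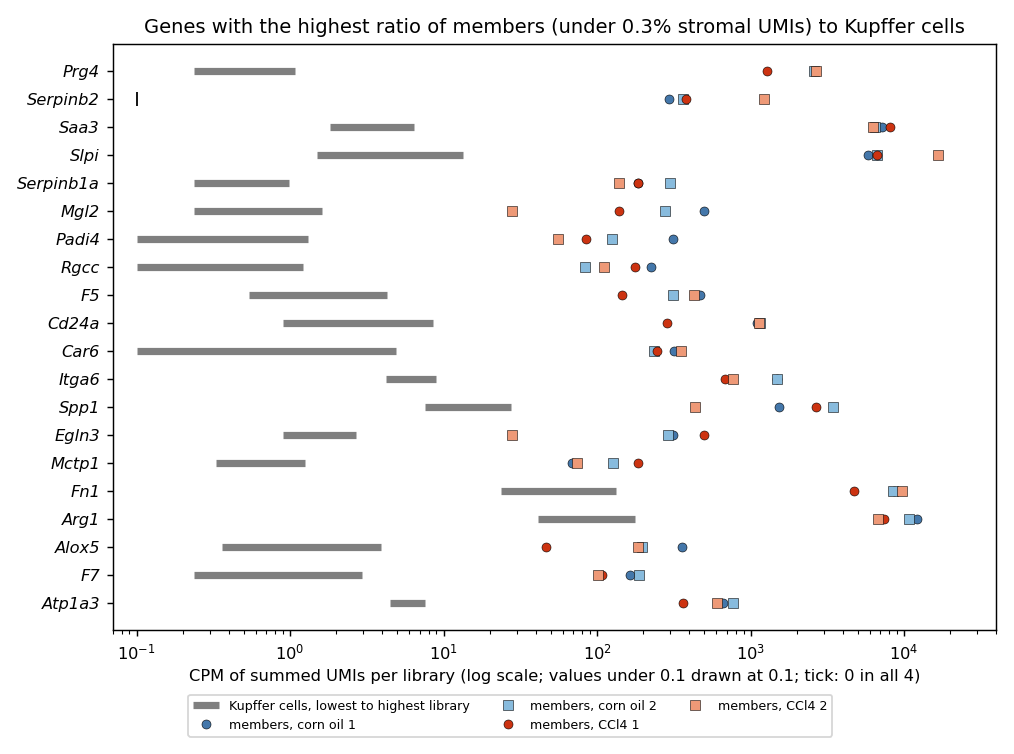
The 20 genes with the largest ratio of the stromal-low cells to Kupffer cells, by level (CPM, log scale), with 1 point per library of stromal-low cells and a grey bar from the lowest to the highest Kupffer library (a tick for Serpinb2, which is at 0 in all 4). Every point lies right of its bar, and Mgl2 runs from 27.8 CPM in CCl4 2 to 496 CPM in corn oil 1.

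Coagulation and adhesion genes were a group in which 11 of 23 measured were higher than in Kupffer cells and 4 lower, the latter near the share of all genes. Of all genes measured, 9.15% were higher and 15.7% lower. F5 (coagulation factor V) was at 466, 311, 146 and 427 CPM against 0.538 to 4.26, F10 at 263, 412, 532 and 195 CPM against 2.29 to 6.10, and F7 at 164, 189, 108 and 102 CPM against 0.237 to 2.95. All 3 factors act in the cascade that leads to thrombin. C1q macrophages held 10.9 to 14.5 CPM of F5 and 18.8 to 100 CPM of F7, the latter reaching almost the level of both CCl4 libraries. The integrin chain Itga6 (laminin receptor) was at 1484, 1496, 686 and 770 CPM against 4.23 to 8.99 and 84.3 to 152 in C1q macrophages. The matrix glycoprotein Fn1 (fibronectin) was at 8581, 8526, 4730 and 9660 CPM against 23.7 to 133 in Kupffer cells and 774 to 3416 in C1q macrophages. Vcam1, which binds leukocyte integrins, was lower together with Icam1, Plau and Itgal, at 0, 2.15, 53.9 and 0 CPM against 805 to 1316.

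The scar-associated macrophage list, genes known from macrophages along the scars of fibrotic liver, had 9 of 20 members higher than in Kupffer cells and 0 lower, in corn oil as in CCl4 libraries. Of all genes measured, 9.15% were higher and 15.7% lower. A high share was not particular to this list, since 32 of 79 ribosomal protein genes were also higher. Trem2, a lipid receptor, was at 410, 506, 532 and 371 CPM against 71.3 to 218, with 3 of 4 libraries below the 520 to 771 of C1q macrophages. Spp1 (osteopontin) was at 1527, 3433, 2673 and 436 CPM against 7.54 to 27.5 in Kupffer cells, and overlapped the 771 to 1462 of C1q macrophages. Gpnmb was at 216, 760, 1387 and 334 CPM against 1.51 to 182 in Kupffer cells. The corn oil and CCl4 values of all 3 genes overlapped. Cd9, a tetraspanin on both lists, was at 841, 1056, 1071 and 798 CPM against 31.1 to 103.

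The genes of retinoid signalling and macrophage transcription had 5 of 20 members higher than in Kupffer cells (Rarb, Rarg, Cebpb, Bhlhe40 and Bhlhe41), against 9.15% of all genes. The list had 3 lower (Rxra, Maf and Nr1h3), a share near the 15.7% of all genes. Rarb, a retinoic acid receptor that is itself a retinoid target, was at 51.8, 49.4, 30.8 and 65.0 CPM against 3.61 to 8.97. Cebpb was at 1264, 959, 778 and 1299 CPM against 226 to 501, and Bhlhe40 at 186, 212, 223 and 213 CPM against 30.8 to 86.0; both encode transcription factors of peritoneal macrophages. Nr1h3, a sterol-sensing nuclear receptor, was at 8.63, 23.6, 53.9 and 18.6 CPM against 222 to 323.

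Among the enzymes of lipid mediators, 7 of 19 measured were higher than in Kupffer cells and 7 lower, against 9.15% and 15.7% of all genes. The leukotriene genes were on the higher side: Alox5 (5-lipoxygenase) was at 358, 197, 46.2 and 186 CPM against 0.359 to 3.93, and Ltc4s (leukotriene C4 synthase) at 828, 577, 154 and 687 CPM against 14.7 to 82.8. CCl4 1 had the lowest value of both, and its Alox5 value lay within the 3.02 to 60.0 CPM of C1q macrophages. Hpgd, which degrades prostaglandins, was on the lower side, at 12.9, 4.29, 116 and 9.28 CPM against 370 to 1204. Ptgis, the prostacyclin synthase, which is also on the peritoneal macrophage list, was at 0 in all 4 libraries.

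Arg1 (arginase 1, which splits arginine to ornithine and urea) was at 12150, 10730, 7442 and 6802 CPM in the stromal-low cells against 41.1 to 177 in Kupffer cells and 746 to 4458 in C1q macrophages. The chemokine Ccl6 was at 7860, 6659, 3975 and 7498 CPM against 924 to 2892. Interferon response genes were mostly low: 16 of 24 measured were below every Kupffer library and 0 above. The shares of all genes were 15.7% below and 9.15% above. Irf7, the interferon-induced factor, was at 8.63, 2.15, 15.4 and 27.8 CPM against 173 to 369. Both the corn oil and the CCl4 libraries were below the Kupffer range.

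The share of selected cells did not differ beyond the spread between mice. It was 0.190% of filtered cells in corn oil 1 (exact 95% binomial interval 0.101% to 0.324%), 0.359% in corn oil 2 (0.235% to 0.525%), 0.456% in CCl4 1 (0.303% to 0.658%) and 0.285% in CCl4 2 (0.163% to 0.462%), intervals that cover counting error only. The groups overlapped, with means of 0.274% ± 0.120 and 0.370% ± 0.121 (SD, n = 2 each), a log2 ratio of 0.43 and an exact two-sided permutation p of 0.667. The stromal-low cells alone were 0.175%, 0.345%, 0.147% and 0.160% of filtered cells, so both CCl4 mice lay below both corn oil mice. Their log2 ratio was -0.76, with an exact permutation p of 0.333, the smallest the design allows. The direction of the share thus turned with the stromal limit, and it also turned with a marker sum of at least 5, without Gata6 in the sum and without the top Scrublet scores.

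Relative to all cells with at least 5 Lyz2 UMIs, the selected cells were 2.77%, 5.53%, 1.62% and 0.757%. Such Lyz2 cells numbered 469 and 470 in the corn oil libraries and 1724 and 2113 in the CCl4 libraries. By this denominator both CCl4 mice were lower. Shares are relative to the cells that the dissociation released and the removal of hepatocytes kept, and say nothing of cell numbers per liver.

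**Figure D4:**
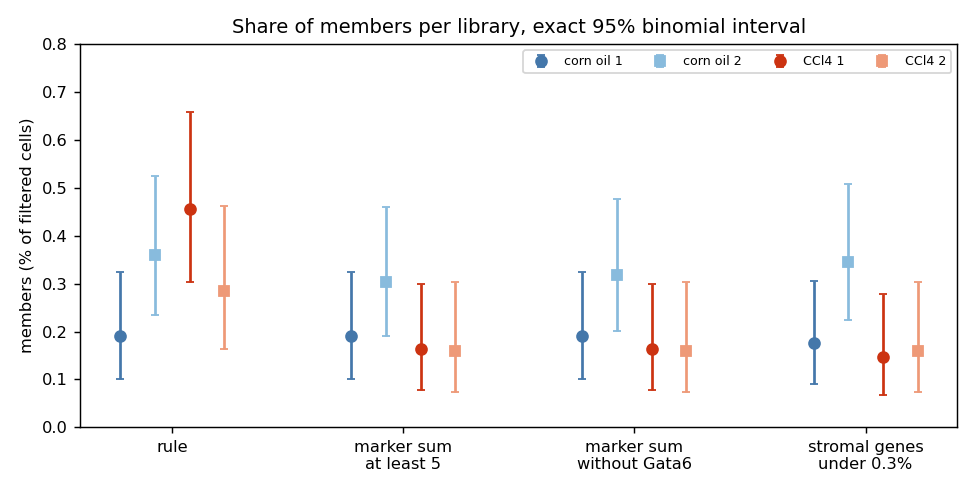
Share of filtered cells (percent, vertical axis from 0) in each library under the rule and its alternatives, with exact 95% binomial intervals. Under the rule CCl4 1 is highest at 0.456%, and with the stromal limit both CCl4 libraries, at 0.147% and 0.160%, are below both corn oil libraries.

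For the comparison of CCl4 with corn oil, UMIs of the selected cells were summed per mouse and tested with edgeR's quasi-likelihood test and Benjamini-Hochberg adjustment over all genes tested. Over all 83 cells, 325 of 5590 genes (5.81%) passed an adjusted p of 0.05, 259 higher (4.63%) and 66 lower (1.18%) with CCl4. The groups did not overlap in 30.7% of genes in the higher and 19.5% in the lower direction. In the 55 stromal-low cells, 0 of 3006 genes passed in edgeR (0.0%), where 152 had an unadjusted p under 0.05 and the lowest adjusted p was 0.274. DESeq2 called 1 gene in these cells, Top2a, and limma-voom 0. Of the 325 genes called over all cells, 73 were abundant enough to be tested in the stromal-low cells. Over all cells the count was also 0 without the top Scrublet scores, 35 with a marker sum of at least 5, and from 163 (without corn oil 2) to 943 (without CCl4 2) with a mouse left out.

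The genes that rose over all cells were mainly genes highest in stromal cells among the classes compared. Of the 259, 239 had their highest CCl4 level in stromal cells with at most 1 Lyz2 UMI, against 1636 of 5265 genes not called. The other classes compared were Kupffer cells, C1q macrophages and monocytes, and endothelial cells were not included. The 26 stromal-high cells held a median of 97.7% of the CCl4 UMIs of the 259 genes, against 68.5% of all CCl4 UMIs of the selected cells. For 209 of the 259 it was 90% or more, against 265 of 5265 genes not called. Dpt (dermatopontin, a matrix protein) was at 0, 0, 135 and 111 CPM, at least 31.7-fold higher with CCl4 against a floor of 3 UMIs over the corn oil group (adjusted p = 0.0134 in edgeR). Tagln (transgelin, of contractile cells) was at 3.67, 0, 622 and 141 CPM, a ratio of 353 that rests on 1 corn oil UMI (95% counting interval 62.9 to 14000). Both CCl4 libraries were above both corn oil libraries for these 2 genes. In the stromal-low cells 16 of the 259 could be tested, of which 0 passed in edgeR and 6 had an unadjusted p under 0.05.

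**Figure D5:**
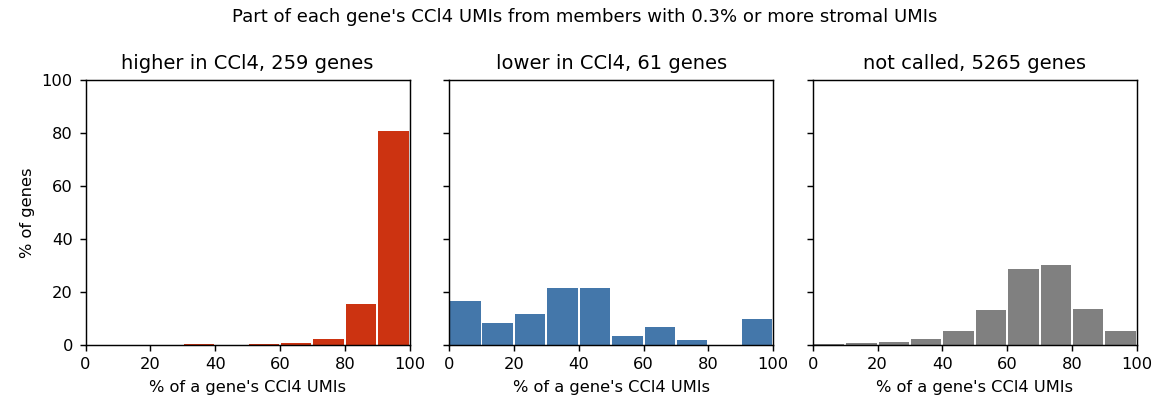
Percentage of each gene's CCl4 UMIs that came from the 26 stromal-high CCl4 cells (horizontal axis, bins of 10) against the percentage of genes (vertical axis), for genes called higher, called lower and not called over all selected cells. Of the 259 higher genes, 209 fall in the last bin, whereas the lower genes (61 of 66 have a CCl4 UMI) spread with a median of 34.4%.

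Other stromal genes among the 12 largest rises were Pdgfrb (the platelet-derived growth factor receptor of mesenchymal cells), Plat, Fhl2, Serpine2, Scarf2 and Eln (elastin). All 6 were at 0 in both corn oil libraries and between 42.4 and 146 CPM in the CCl4 libraries. Of the 8 stellate cell and fibroblast markers, 3 rose (Dcn, Col1a1 and Lum) and 0 fell, with a median log2 difference of 2.87 against 0.02 over all genes tested. Of all genes tested, 4.63% rose. Neither Dpt nor Pdgfrb was abundant enough in the stromal-low cells to be tested.

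Of 19 tested interferon response genes, 10 rose and 0 fell over all cells, against 4.63% and 1.18% of all genes tested. Their median log2 difference was 3.40 (3.36 with the gene at 0 in corn oil set to its bound). Isg15, a ubiquitin-like modifier induced by interferon, rose from 0 and 4.22 to 86.7 and 81.2 CPM (adjusted p = 0.0202 in edgeR). In the stromal-low cells Isg15 was at 0, 2.15, 15.4 and 0 CPM, which is 1 UMI in corn oil 2 and 2 in CCl4 1. In the stromal cells with at most 1 Lyz2 UMI it was at 32.3, 32.9, 175 and 83.2 CPM. Only 2 interferon genes could be tested in the stromal-low cells, Ifitm3 and Gbp2, and neither passed. Of 21 tested inflammatory mediators, 3 rose (Il1b, Cxcl10 and Lcn2) and Saa3 fell, against the same shares of all genes. Il1b, an inflammatory cytokine, rose from 22.0 and 10.6 to 160 and 286 CPM over all cells (log2 difference 3.72, SE 0.50, adjusted p = 0.0191 in edgeR), with 0, 5, 12 and 0 UMIs in the stromal-low cells. Classical monocytes of the CCl4 mice held 655 and 447 CPM of Il1b, and the part of monocyte RNA in its rise was not tested.

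The genes that fell included macrophage genes whose log2 differences were nearer to 0 in the stromal-low cells. The median part of the stromal-high cells in the CCl4 UMIs of the 66 lower genes was 34.4%, below their 68.5% of all UMIs. Itgam fell from 3364 and 4601 to 846 and 1641 CPM over all cells (log2 difference -1.80, SE 0.38, adjusted p = 0.0425 in edgeR). Its difference among the 55 stromal-low cells was -0.50 with an adjusted p of 0.946 in edgeR. Saa3 fell from 9977 and 6346 to 3581 and 3684 CPM (log2 difference -1.27, SE 0.26, adjusted p = 0.0411 in edgeR). A single stromal-high cell gave 1055 of the 2720 Saa3 UMIs of corn oil 1, and another gave 791 of the 1859 of CCl4 1. In the stromal-low cells the log2 difference of Saa3 was 0.07 with an adjusted p of 0.996 in edgeR. An adjusted p above the threshold does not show that the levels in the stromal-low cells were equal.

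Arg1 fell over all cells from 10330 and 10550 to 2001 and 3171 CPM (log2 difference -2.12, SE 0.29, adjusted p = 0.0191 in edgeR). Among the 55 stromal-low cells it was lower by 0.70 on the log2 scale, with an adjusted p of 0.946. Cd5l, a secreted apoptosis inhibitor of macrophages, fell from 2164 and 2610 to 430 and 483 CPM (log2 difference -2.50, SE 0.27, adjusted p = 0.0134). Its values in the stromal-low cells were 2412, 2652, 1240 and 1011 CPM (log2 difference -1.19, adjusted p = 0.572). Itga6 fell to 187 and 393 CPM over all cells (log2 difference -2.37, SE 0.40, adjusted p = 0.0258), and in the stromal-low cells, where both CCl4 libraries were again below both corn oil libraries, the difference was -1.05 with an adjusted p of 0.572. Among genes tested in the stromal-low cells, 17.4% were lower without overlap.

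Of 25 tested peritoneal macrophage genes outside the rule, 6 fell (Aspa, Itga6, Naip1, Padi4, Itgam and Adgre1) and 1 rose over all cells. Over all genes tested 1.18% fell and 4.63% rose, so the 1 rise was near the share of all genes. The median log2 difference of the 25 was -1.28. The gene that rose was C4b, a complement component, from 58.7 and 12.7 to 239 and 235 CPM. In the stromal-low cells 0 of 20 passed and the median was -0.11. Padi4, a peptidylarginine deiminase, fell from 268 and 122 to 21.2 and 25.6 CPM (log2 difference -3.14, SE 0.49, adjusted p = 0.0218 in edgeR). The C-type lectin Mgl2 fell from 422 and 272 to 48.2 and 12.8 CPM (log2 difference -3.43, SE 0.53, adjusted p = 0.0216). Mgl2 in the stromal-low cells was at 496, 277, 139 and 27.8 CPM, lower in both CCl4 libraries, with a log2 difference of -2.15 and an adjusted p of 0.595.

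Coagulation and adhesion genes had 4 falls (F7, Itga6, Itgam and Itgb2) and 2 rises (F13a1 and Thbd) among 21 tested, and in the stromal-low cells 0 of 16 passed. Over all genes tested in all selected cells, 1.18% fell and 4.63% rose. F7 fell from 139 and 186 to 40.5 and 51.3 CPM (log2 difference -1.98, SE 0.35, adjusted p = 0.0266 in edgeR), against -0.77 and an adjusted p of 0.946 in the stromal-low cells. F13a1, the transglutaminase that crosslinks fibrin, was at 3.67, 0, 73.2 and 154 CPM over all cells, a ratio of 73.4 that rests on 1 corn oil UMI (interval 12.8 to 2940). In the uptake and complement list 3 of 26 tested fell (Itgam, Itgb2 and Cfp) and 1 rose (C4b), the rise near the share of all genes. Ribosomal protein genes had 0 calls among 79 tested, the secretory pathway 0 among 23, lipid uptake and efflux 0 among 21, and mitochondrial transcripts 0 among 13.

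Cell cycle genes had lower median levels with CCl4 in both sets of cells. Over all cells 8 of 21 tested fell (Mki67, Top2a, Ccna2, Birc5, Stmn1, Rrm2, Nusap1 and Ube2c) and 0 rose, with a median log2 difference of -1.51. Of all genes tested over all cells, 1.18% fell. In the stromal-low cells 0 of 13 passed in edgeR, with a median of -2.28, and 9 of 13 were lower without overlap against 17.4% of all genes tested. Top2a (chromosome 11, 98992943 to 99024189, minus strand), the topoisomerase of dividing cells, was at 272, 170, 0 and 0 CPM in the stromal-low cells, at least 16.1-fold lower with CCl4 against a floor of 3 UMIs over the CCl4 group. Its adjusted p was 0.274 in edgeR and 0.0213 in DESeq2. Over all cells Top2a was at 242, 167, 7.71 and 0 CPM (log2 difference -5.31, SE 0.61, adjusted p = 0.0134 in edgeR).

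Pclaf (chromosome 9, 65890237 to 65903266, plus strand), a PCNA-binding factor of DNA replication, was at 155, 122, 0 and 0 CPM in the stromal-low cells, at least 10.6-fold lower with CCl4, with an adjusted p of 0.337 in edgeR. Mki67, the Ki-67 antigen of dividing cells, was at 94.9, 122, 0 and 0 CPM, at least 8.97-fold lower, with an adjusted p of 0.341. These values came from few cells. In corn oil 1, 1 cell gave 60 of the 63 Top2a UMIs and all 36 of Pclaf. In corn oil 2, 6 of 25 stromal-low cells had a Top2a UMI and the highest of them gave 45.6%.

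Cells with a Mki67 or Top2a UMI were 3 of 12, 10 of 25, 0 of 9 and 0 of 9 stromal-low cells, at median depths of 16448, 18398, 14252 and 10219 UMIs. In each CCl4 mouse, 0 of 9 cells allows a share of cells with such a UMI of up to 33.3%, for counting error only. The summed level of both genes in the stromal-low cells was 367, 292, 0 and 0 CPM. It was also lower in both CCl4 mice than in both corn oil mice in other cells: in C1q macrophages it was 224, 85.7, 43.9 and 28.0 CPM, in classical monocytes 112, 167, 12.5 and 41.0 CPM, and in endothelial cells 31.7, 28.4, 7.645 and 5.796 CPM. A lower level with CCl4 was thus not particular to the selected cells. In Kupffer cells the level, 58.3, 135, 44.7 and 107 CPM, overlapped between the groups. The share of endothelial cells with a UMI of either gene, 1.76%, 1.38%, 3.51% and 2.20% at median depths of 5173, 4213, 6477.5 and 5805 UMIs, went against their level, so no order is read from it. The difference between the selected cells and Kupffer cells in this contrast was not tested, because 2 libraries held fewer than 20 selected cells.

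No other gene of the stromal-low cells passed in edgeR or DESeq2, and the genes of lowest p are given as values. Ly6c2, a surface antigen of classical monocytes, was at 0, 0, 84.7 and 408 CPM, at least 53.8-fold higher with CCl4 and with an adjusted p of 0.341 in edgeR. Its 11 and 44 UMIs lay in 2 and 3 cells, of which 1 cell each gave 90.9% and 79.5%. Clec4a1, a lectin of monocytes and macrophages, was at 34.5, 10.7, 131 and 213 CPM (log2 difference 3.05, adjusted p = 0.464), and Ifi204, an interferon-inducible DNA sensor, at 8.63, 4.29, 69.3 and 55.7 CPM (3.29, adjusted p = 0.572). Gyg (glycogenin, the primer of glycogen) was lower without overlap, at 233, 255, 69.3 and 65.0 CPM (log2 difference -1.88, adjusted p = 0.464). Emp1, a membrane protein, was at 108, 148, 478 and 408 CPM (1.75, adjusted p = 0.464). Of the 7 classical monocyte markers, 3 rose over all cells (Ly6c2 itself, Plac8 and F13a1), against 4.63% of all genes tested. In the stromal-low cells 0 of 5 tested monocyte markers passed, with a median log2 difference of 1.92 that includes Ly6c2. The summed level of the 7 markers in these cells overlapped between the groups, at 2726, 1034, 1186 and 2487 CPM. The part of monocyte RNA in the values of Ly6c2 and Clec4a1 was not tested.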

How the data were processed

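Per the file headers, each deposited table gives UMI counts by cell, made by the authors with the BD WTA Rhapsody Analysis Pipeline 1.9.1, against GRCm38 with GENCODE vM19. No aligner is named there. The authors' tables hold called cells only, and raw reads were not used. Cells were filtered and selected by the rule given above, with no clustering. Doublets were scored with Scrublet (scanpy 1.11.5) and not removed. Raw counts were summed per mouse and tested in R 4.3.3 with edgeR 4.0.16 (TMM, filterByExpr, quasi-likelihood test, Benjamini-Hochberg), without a replicate block. DESeq2 1.42.0 and limma 3.58.1 were alternatives. Tests were tried on simulated data first. Genes of the rule, and Kupffer comparisons, are descriptions with no test. Named genes are the 12 largest calls per direction without overlap and with a mean of at least 50 CPM, up to 4 calls per list, and the 10 of lowest p where under 10 passed. Members and lists were chosen with earlier results of these data known. The stromal limit, and the sum without Gata6, were added after the values had been seen. Gene coordinates come from GENCODE vM21 on GRCm38. Some genes that the rule names are not reported here.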

Additional observations from a re-analysis of the deposited data

How the results depend on the processing

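The log2 ratio of the share of selected cells (0.43) turned to -0.61 with a marker sum of at least 5, -0.38 without the top 5% of Scrublet scores, -0.76 with the stromal limit, -0.65 without Gata6 in the sum and -1.80 relative to Lyz2 cells. It ranged from 0.05 to 0.96 with each mouse left out. The 325 genes called over all cells became 1006 without the filter on low counts, 35 with a marker sum of at least 5, 565 with at least 2, 59 with cells thinned to 3000 UMIs, 0 without the top Scrublet scores, 0 with the stromal limit and 2 without Gata6 in the sum (Il1r1 and Cxcl12, both higher). With 1 mouse left out they ranged from 163 (without corn oil 2) to 943 (without CCl4 2), with 806 without corn oil 1 and 270 without CCl4 1. The group left with 1 mouse was then assumed to vary like the other. The part of calls that were higher, 79.7%, was 61.9% without CCl4 2 and 94.3% with a marker sum of at least 5. RLE scaling, DESeq2, limma-voom, a mean of at least 10 UMIs, 15% mitochondrial UMIs and endothelial genes under 0.1% gave 354, 282, 256, 273, 353 and 474. Of the 57 named genes, 26 lost their call without corn oil 2 and 8 without CCl4 1, and the log2 difference of Saa3 turned to 0.0717 (0.07) with the stromal limit.

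With the replicate number as a block the share ratio was 0.47, and 785 genes were called over all cells (65.5% higher) and 0 in the stromal-low cells. Same-numbered mice correlated at 0.113 (0.0303 in the stromal-low cells) after group means were removed, and the labels do not pair them, so they share only a number. The 0 calls of the stromal-low cells became 1 in DESeq2, 102 without the filter on low counts and 6 to 187 with a mouse left out (19 and 6 without corn oil 1 and 2, 91 and 187 without CCl4 1 and 2). The stromal limit, the sum without Gata6 and every test of the stromal-low cells were chosen after seeing the data. Tests of the difference from Kupffer cells and from C1q macrophages were planned for at least 20 cells per library and were not run, since 2 libraries held fewer. The CCl4 stromal-low cells summed to 107766 to 129807 UMIs per library.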
